A study of Ammopiptanthus mongolicus with 6 samples.

Results

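The unigenes described here are leaf transcripts whose read rate stood highest early in drought, at 1 h, and was lower in untreated leaves and again later in the same stress. A unigene is a transcript assembled from reads, without a genome. Members needed at least 30 reads in the drought 1 h library and a rate there of at least 2 times the rate in each of the untreated control, drought 24 h and drought 72 h, where a rate is the read count, with counts under 3 set to 3, over the library total. Of 67955 unigenes, 16623 had at least 30 reads in drought 1 h, and 100 of these were members.

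The plants were wild-type Ammopiptanthus mongolicus, an evergreen shrub of Central Asian deserts, and all 6 libraries were made from leaf RNA labelled as mesophyll. They comprise 1 control without treatment, drought sampled after 1, 24 and 72 h, and cold sampled after 1 and 72 h. The sources used here do not say how each stress was applied, how many plants went into a library or at what time of day leaves were taken. The series' design text speaks of triplicates, but each group analysed here is 1 library. Differences below therefore lack any replicate check, and no test across samples was possible. In units of 1000 uniquely assigned reads, library totals ran from 4300.0 in drought 24 h to 4673.2 in the control, and 3 reads correspond to 0.642 to 0.698 CPM, counts scaled to the library total. Among the libraries, cold 72 h differed most widely from the control by the share of unigenes called, given with that comparison, and results that rest on it are set beside those of cold 1 h. No file pairs a unigene with a gene name, and for this reason neither the mesophyll label nor any pathway list could be checked.

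In a leaf that loses water, signalling runs through calcium, reactive oxygen species and the hormone abscisic acid. In Arabidopsis thaliana, many transcripts that accumulate first under such stress code for transcription factors and signalling proteins, and part of them return towards their starting level while the stress lasts. Transcripts of protective proteins such as dehydrins tend to stay high for longer, and drought and cold share part of their responses in that species. Which of these classes the members belong to is unknown, and they are described by identifier and by behaviour.

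Members were chosen by their read rates in drought 1 h, control, drought 24 h and drought 72 h, so these levels are given as a description only. Together the 100 members took 0.145% of the control reads, 0.438% of the drought 1 h reads, 0.114% at 24 h and 0.0974% at 72 h. The median member had 20.5 reads in the control, 59.0 in drought 1 h, 15.0 at 24 h and 15.0 at 72 h. On the RPKM scale (reads scaled to unigene length and library total) the median was 7.39 in the control, 23.9 in drought 1 h, 5.34 at 24 h and 5.03 at 72 h. In bulk tissue, a change in the number of cells of a type and a change in RNA per cell cannot be told apart.

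Members were mostly of moderate abundance. In drought 1 h, 46 had 30 to under 50 reads, 22 had 50 to under 100 and 32 had 100 or more. The drought 1 h rate was 2.46 times the highest of the 3 other libraries in the median member and 6.87 times in the most extreme one. It was at least 3 times that level in 28 members, at least 4 times in 8 and at least 5 times in 4. The library nearest to the peak was the control in 68 members, drought 24 h in 20 and drought 72 h in 12. Just inside the threshold stood CL3746.Contig1_All and CL4803.Contig2_All, each at 2.00 times the next library, and just outside stood CL4787.Contig1_All at 1.997 times and Unigene36446_All at 1.98 times.

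**Figure D1:**
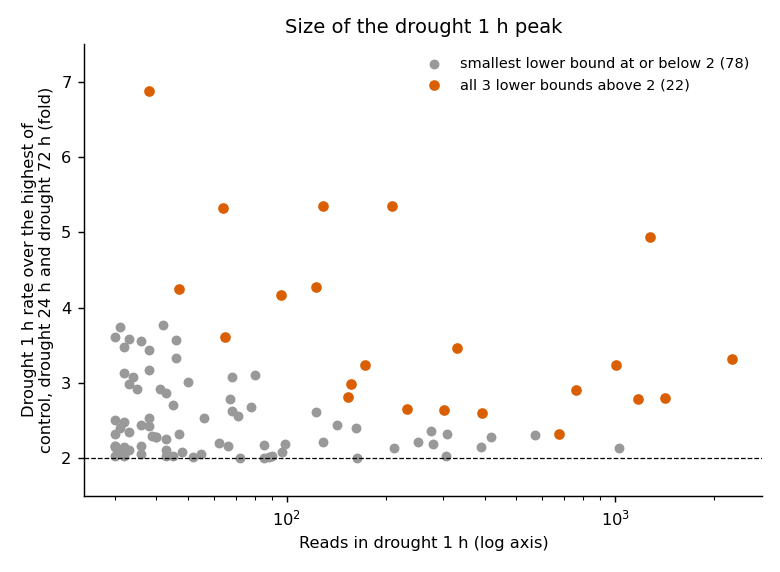
Fold of the drought 1 h read rate over the highest of control, drought 24 h and drought 72 h (vertical axis) against reads in drought 1 h (log axis), 1 point per member. The dashed line is the threshold of 2, and the 22 members in orange had the lower 95% counting bound of all 3 ratios above 2.

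Counting error bears on how firm each peak is. For each pair of libraries the ratio of rates was given its exact 95% interval, conditional on the sum of both counts, and a call of higher or lower required that every value in the interval lay beyond 2-fold. Such intervals cover counting error only, as PCR copies of a molecule are counted separately, and they compare libraries, not conditions. All 3 lower bounds lay above 1 in all 100 members and above 2 in 22. With at least 30 reads and a ratio of at least 2, a bound above 1 follows from the rule. Drought 1 h was called higher than the control in 32 members (0.83% of the 16623 unigenes with at least 30 reads in drought 1 h), higher than drought 24 h in 62 (1.28%) and higher than drought 72 h in 72 (1.46%). It was called lower in 0 members in each case, beside 0.186%, 0.361% and 0.168% of the same unigenes. The rule used these contrasts, so nothing is read from those counts. The percentages in parentheses after counts of calls, here and below, are the share of the same 16623 unigenes with that call.

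The most abundant member was Unigene494_All (1159 bases), with 741 reads in the control, 2262 in drought 1 h, 265 at 24 h and 270 at 72 h. Its cold libraries held 265 reads at 1 h and 210 at 72 h. The level was thus lower in later drought and in cold than in the untreated leaf, with drought 1 h alone above it. The control rate was 2.57 times that of drought 24 h (2.23 to 2.97), 2.73 times that of drought 72 h (2.37 to 3.14) and 2.699 times that of cold 1 h (2.34 to 3.12). Unigene1148_All (1313 bases) had the firmest peak by its smallest lower bound, 4.34. It had 281 reads in the control, 1278 in drought 1 h, 256 at 24 h and 109 at 72 h, and 141 and 102 in cold at 1 and 72 h. At 24 h its level matched the control within counting error (control over drought 24 h 1.01, 0.850 to 1.201), and at 72 h it was 2.56 times lower than in the control (2.05 to 3.22).

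Unigene36437_All (776 bases) rested on a low untreated level. It had 9 reads in the control, 209 in drought 1 h, 39 at 24 h and 27 at 72 h, and in cold 3 reads at 1 h and 16 at 72 h. Its drought 1 h rate was 25.2 times that of the control (13.02 to 55.9) and 73.0 times that of cold 1 h (24.6 to 357). The later drought libraries lay between the peak and the control, and drought 24 h was 4.71 times the control (2.24 to 11.1). Unigene25309_All (373 bases) had 11 reads in the control, 129 in drought 1 h, 13 at 24 h and 26 at 72 h, against 14 and 37 in cold. Unigene31361_All (1118 bases) had 25 reads in the control, 96 in drought 1 h, 12 at 24 h and 10 at 72 h, against 12 and 21 in cold. In Unigene18097_All (665 bases) the reads were 103 in the control, 329 in drought 1 h, 57 at 24 h and 67 at 72 h, against 73 and 57 in cold. For these 3 unigenes drought 1 h was the highest of the 6 libraries, and neither cold library came near it.

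**Figure D2:**
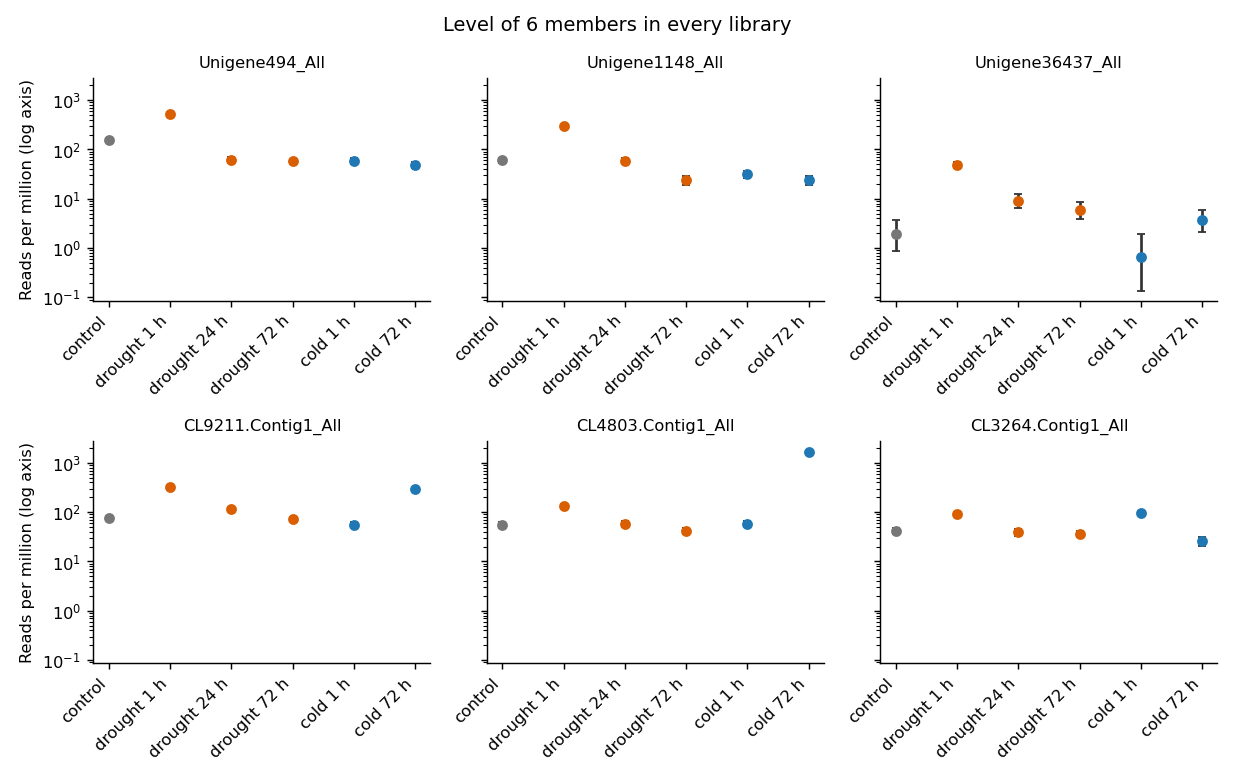
CPM (log axis) of 6 members in each of the 6 libraries, with 95% Poisson intervals of the count where they are wider than the point (grey control, orange drought, blue cold). In the upper row drought 1 h is the highest library, in the lower row CL9211.Contig1_All and CL4803.Contig1_All are also high in cold 72 h and CL3264.Contig1_All in cold 1 h.

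Later drought was set beside the control as a description, a comparison added after the data were seen. The rule used all 3 of these libraries, and the unigenes outside the rule had no such ceiling, so nothing is read from the difference between members and background. Read rates of most members were lower than in the control. At 24 h, 73 of 100 members were below the control, with a median log2 ratio of -0.50, and at 72 h, 82 of 100 were below, with a median of -0.57. The medians over the 16623 unigenes with at least 30 reads in drought 1 h were -0.00 and 0.01, and 49.7% and 51.1% of them lay above the control. Members below the control at both times numbered 68, beside 37.7% of those unigenes. Members above it at both times numbered 13, beside 38.4%. Both ratios share the control library. Calls beyond 2-fold were few at these depths. At 24 h, 1 member was higher (1.48%) and 3 were lower (1.33%), and at 72 h none was higher (0.914%) and 10 were lower (1.09%). Under a looser rule, a ratio of 2 or more with an interval that leaves out 1, there were 4 higher (4.31%) and 17 lower (4.03%) members at 24 h, and 3 (2.97%) and 24 (2.92%) at 72 h.

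The 1 member called higher at 24 h was Unigene36437_All, described above. The 3 called lower at 24 h were Unigene494_All, CL3746.Contig1_All and Unigene41196_All, and all 3 were called lower at 72 h as well. CL3746.Contig1_All (3074 bases) had 89 reads in the control, 164 in drought 1 h, 18 at 24 h and 11 at 72 h, and 56 and 20 in cold. Its control rate was 4.55 times that of drought 24 h (2.72 to 8.03) and 8.03 times that of drought 72 h (4.28 to 16.7), so the fall below the untreated level was larger than the early excess of 2.00 times. The shortest member, Unigene41196_All (212 bases), had 14 reads in the control, 32 in drought 1 h, 0 at 24 h and 1 at 72 h, and 5 and 29 in cold. Its control rate was at least 4.29-fold that of drought 24 h, taken against a floor of 3 counts in that library, and the lower 95% bound of the ratio was 3.05.

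In CL7200.Contig2_All (911 bases) the fall to over 2-fold below the control came after 24 h of drought. Its rate had already dropped before that, as drought 1 h was 3.27 times drought 24 h (2.80 to 3.84). It had 316 reads in the control, 675 in drought 1 h, 206 at 24 h and 35 at 72 h, and 386 and 465 in cold. The control stood 1.41 times above drought 24 h (1.18 to 1.69) and 8.96 times above drought 72 h (6.31 to 13.1). Cold 1 h and cold 72 h lay above the control for this unigene, within 2-fold. The other members called lower at 72 h were CL157.Contig3_All, CL2023.Contig1_All, Unigene1148_All, Unigene15180_All, Unigene15849_All and Unigene3444_All, named after their values were seen.

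**Figure D3:**
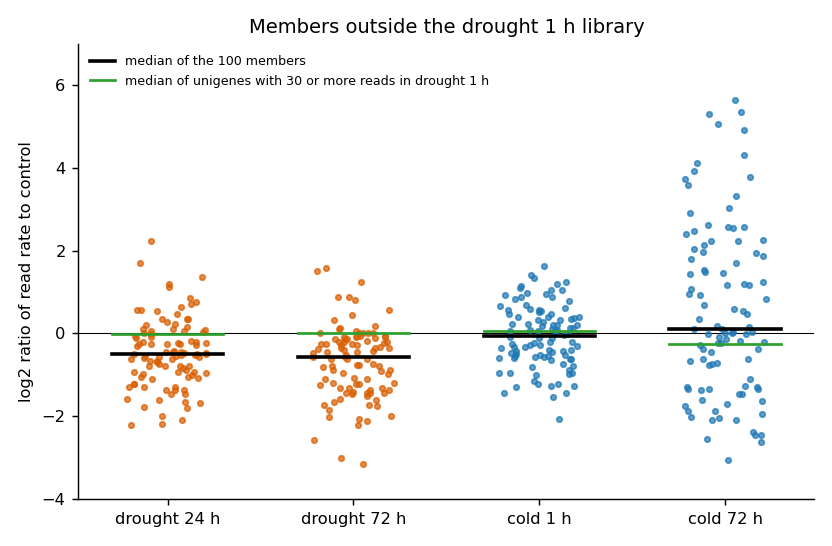
log2 ratio of read rate to the control (counts under 3 set to 3) for the 100 members in the 4 stress libraries other than drought 1 h, 1 point per member. Black bars are medians of the members and green bars medians over all 16623 unigenes with at least 30 reads in drought 1 h. Member medians are -0.50 and -0.57 in later drought and -0.07 in cold 1 h, and the points spread most widely in cold 72 h.

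Cold libraries took no part in choosing the members, although the control did. At 1 h of cold the members lay on both sides of the untreated level, and 99 were called neither higher nor lower. Their median log2 ratio to the control was -0.07, beside 0.05 over the 16623 unigenes. By rate alone 48 members lay above the control and 52 below, beside 55.7% of those unigenes above it. None was called higher (0.59%) and 1 was called lower (0.493%), Unigene494_All. The control and cold 1 h together held 45.5 reads in the median member against 178.0 in the median of those unigenes, and 65 cold reads would have been needed for a higher call against 20 control reads. At such counts a call needed a ratio well beyond 2-fold, which some members reached in cold 72 h, as given below. Under the looser rule given for drought, 9 members were higher in cold 1 h (2.68%) and 4 lower (1.77%).

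Set against drought at the same time, cold 1 h was lower. The cold 1 h rate was at most 0.5 times that of drought 1 h in 76 members, and 42 members were called lower (0.957%) and none higher (0.102%). Members were chosen for a high drought 1 h count, which fixes the direction of this difference. In 1 member, CL3264.Contig1_All (1592 bases), cold 1 h was above drought 1 h. It had 197 reads in the control, 391 in drought 1 h, 169 at 24 h and 169 at 72 h, and 433 at 1 h of cold and 110 at 72 h. Its 2 early libraries, drought 1 h and cold 1 h, were alike within counting error (drought over cold 0.946, 0.823 to 1.09), and the 4 others were lower. Between 24.6 and 28.3% of its bases were covered by reads, depending on the library.

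In 15 members the interval of cold 1 h over drought 1 h held 1. The share of unigenes outside the rule with such an interval was not counted. Members were chosen for a high drought 1 h count, so nothing is read from this number. The next highest ratios after CL3264.Contig1_All were those of CL4802.Contig4_All and Unigene25851_All. CL4802.Contig4_All (826 bases) had 18 reads in the control, 45 in drought 1 h, 14 at 24 h and 9 at 72 h, and 46 and 1 in cold. Unigene25851_All (464 bases) had 18 reads in the control, 36 in drought 1 h, 8 at 24 h and 13 at 72 h, and 37 and 551 in cold. They parted at 72 h of cold, where the first was nearly absent and the second stood at its highest. At the other end, the members lowest in cold 1 h relative to drought 1 h were Unigene36437_All, Unigene16222_All (1918 bases) and CL2954.Contig1_All (464 bases). Unigene16222_All had 13 reads in the control, 38 in drought 1 h, 3 at 24 h and 5 at 72 h, and 2 and 13 in cold. CL2954.Contig1_All had 5 reads in the control, 38 in drought 1 h, 15 at 24 h and 1 at 72 h, and 4 and 3 in cold.

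The comparison of cold 72 h with cold 1 h used no library of the rule. Cold 72 h was called higher than cold 1 h in 30 members (3.87%) and lower in 13 (5.9%), and 57 were called neither. The median log2 ratio was 0.51 in the members and -0.32 over the 16623 unigenes. The higher members made up 12 of the 32 with at least 100 reads in drought 1 h, beside 3.73% of all unigenes at that depth, and 18 of the 68 with fewer reads, beside 3.99%. Under trimmed-mean (TMM) scaling, which moves the median of the 16623 unigenes from -0.32 to 0.03, the split was 34 higher (5.62%) and 5 lower (3.24%). With 1 library at each time, a shift in cold 72 h cannot be told apart from a difference of that library.

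The same rule with another library as the highest gave 99 unigenes for drought 24 h, 34 for drought 72 h and 131 for the control. Called higher in cold 72 h than in cold 1 h were 8 of the 99, 7 of the 34 and 24 of the 131, and 11, 6 and 14 were called lower. These counts are set beside the 30 and 13 of the early members as values only. The sets differ in size, and the share of background unigenes with these calls was not counted for each set. No test between the sets was possible, so nothing is read from the differences.

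Against the control, cold 72 h was called higher in 29 members (4.21%) and lower in 10 (6.12%), and the median log2 ratio was 0.12 beside -0.26 over the 16623 unigenes. With median-of-ratios scaling the split was 33 higher (5.88%) and 6 lower (3.58%). Of the 30 members higher than in cold 1 h, 28 were also called higher than in the control, and of the 13 lower members, 5 were also called lower than in the control. Both contrasts share the cold 72 h library. The share of the 16623 unigenes with both calls was not counted, so nothing is read from this overlap. Cold 72 h was called even above drought 1 h in 13 members (3.06%) and below it in 42 (6.81%), although drought 1 h had been chosen as high. Over all 6 libraries, drought 1 h was the highest in 67 members, cold 72 h in 32 and cold 1 h in 1. By the rule, neither the control nor a later drought library could be the highest. In 42 members drought 1 h was at least 2 times each of the 5 others. Shares over the 16623 unigenes were not counted for the highest library or for these 42.

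**Figure D4:**
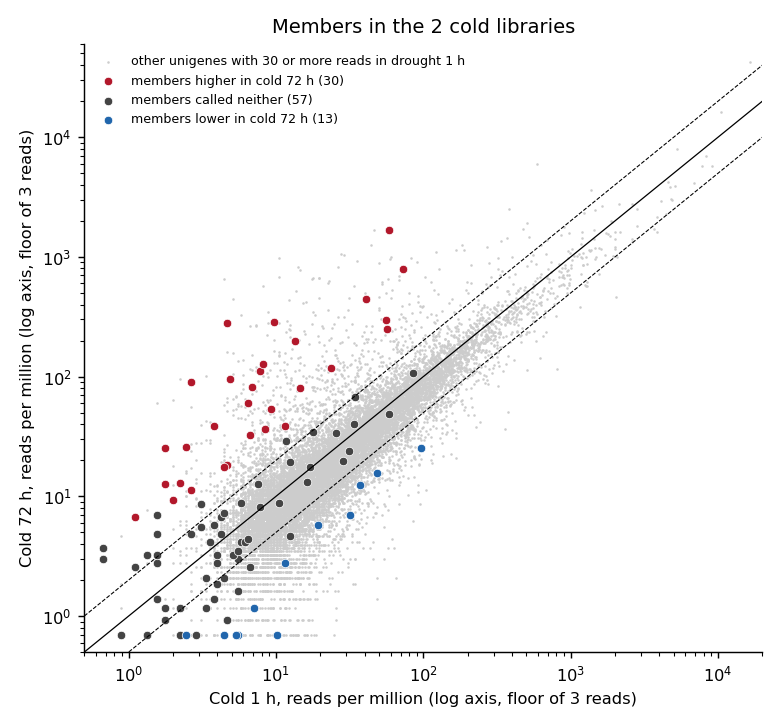
CPM in cold 72 h against cold 1 h (both log axes, counts under 3 set to 3) for the 100 members, over the other unigenes with at least 30 reads in drought 1 h in grey. Lines mark equality (solid) and 2-fold (dashed). The 30 red members lie above the upper dashed line, up to 60.3 times, and the 13 blue ones below the lower.

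The 30 members higher in cold 72 h took 0.0553% of the control reads, 0.169% in drought 1 h, 0.0466% and 0.0415% at 24 and 72 h of drought, 0.0450% in cold 1 h and 0.535% in cold 72 h. Cold 72 h exceeded drought 1 h in their summed reads, although 1 unigene weighed heavily in that sum. These members were grouped by a cold 72 h rate above that of cold 1 h. Their high cold 72 h level follows in part from that choice and is given as a description. The median member of the group stood at 6.53 CPM in the control, 16.03 in drought 1 h, 6.76 in cold 1 h and 70.6 in cold 72 h. Their ratios of cold 72 h to cold 1 h ran from 3.33 to 60.3 with a median of 8.31. The weight in the sum is that of CL4803.Contig1_All (827 bases), with 258 reads in the control, 568 in drought 1 h, 246 at 24 h and 191 at 72 h, and 262 and 7241 in cold. Without it all members together took 0.436% of the cold 72 h reads, and with it 0.605%. Cold 1 h did not differ from the control for this unigene beyond counting error (1.052, 0.883 to 1.25), and cold 72 h was 29.0 times cold 1 h (25.6 to 32.9).

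The largest ratio was that of Unigene33935_All (507 bases). It had 33 reads in the control, 66 in drought 1 h, 13 at 24 h and 17 at 72 h, and 21 and 1207 in cold, a ratio of cold 72 h to cold 1 h of 60.3 (39.2 to 97.7). CL1676.Contig1_All (684 bases) had 33 reads in the control, 85 in drought 1 h, 39 at 24 h and 34 at 72 h, and 44 and 1235 in cold, a ratio of 29.4 (21.8 to 40.7). In both the drought 1 h level was 2.17 to 2.80 times that of the control, small beside the cold 72 h level. In the next pair the early drought level came closer to that of late cold. CL9211.Contig1_All (1928 bases) had 354 reads in the control, 1420 in drought 1 h, 507 at 24 h and 339 at 72 h, and 253 and 1287 in cold. CL1129.Contig2_All (1494 bases) had 457 reads in the control, 1175 in drought 1 h, 221 at 24 h and 382 at 72 h, and 328 and 3418 in cold. Both were lower in cold 1 h than in the control, by 1.35 times (1.15 to 1.59) in CL9211.Contig1_All and 1.345 times (1.17 to 1.56) in CL1129.Contig2_All, within 2-fold.

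Unigene15180_All (1446 bases) had 338 reads in the control, 1007 in drought 1 h, 175 at 24 h and 135 at 72 h, and 185 and 1926 in cold. It was below the control in later drought and in cold 1 h, and above it in drought 1 h and cold 72 h only. Unigene13269_All (248 bases) had the largest fold of drought 1 h over the highest of control, drought 24 h and drought 72 h, 6.87, although its cold 72 h library was higher still. It had 6 reads in the control, 38 in drought 1 h, 3 at 24 h and 5 at 72 h, and 8 and 110 in cold. Unigene32990_All (676 bases) had 8 reads in the control, 64 in drought 1 h, 12 at 24 h and 10 at 72 h, and 11 and 112 in cold. The 4 low libraries of both lay between 3 and 12 reads, and drought 1 h and cold 72 h were apart from them.

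The 13 members lower in cold 72 h than in cold 1 h had a median level of 4.07 CPM in the control, 15.8 in drought 1 h, 10.2 in cold 1 h and 1.16 in cold 72 h. Cold 1 h was 3.01 to 14.6 times cold 72 h in this group, with counts under 3 set to 3. The group was chosen by these 2 libraries, so their levels are a description only. CL4297.Contig1_All (1660 bases) had 101 reads in the control, 212 in drought 1 h, 99 at 24 h and 101 at 72 h, and 144 and 30 in cold. Its 2 later drought libraries were at the control level within counting error, and cold 72 h was 3.10 times lower than the control (2.04 to 4.83). Unigene36531_All (676 bases), the member with the highest drought 72 h level, had 282 reads in the control, 1029 in drought 1 h, 315 at 24 h and 517 at 72 h, and 217 and 67 in cold. It was 3.87 times lower in cold 72 h than in the control (2.96 to 5.14) while all 3 drought libraries lay above the control. CL4802.Contig4_All, with 46 reads in cold 1 h and 1 in cold 72 h, had a ratio of 14.6 with the 1 read set to 3, and of 43.9 as counted, with a counting interval of 7.49 to 1770. Under TMM scaling 5 of the 13 calls remained.

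Among the members lowest in cold 72 h relative to the control, CL7163.Contig4_All (248 bases) had 17 reads in the control, 38 in drought 1 h, 5 at 24 h and 4 at 72 h, and 11 and 0 in cold. It was at least 5.22-fold lower in cold 72 h than in the control, against a floor of 3 counts in that library, with a lower 95% bound of the ratio of 3.798. Unigene29882_All (607 bases) had 63 reads in the control, 142 in drought 1 h, 28 at 24 h and 48 at 72 h, and 25 and 7 in cold, 8.28 times lower in cold 72 h than in the control (3.79 to 21.4). Both were below the control in every library other than drought 1 h.

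**Figure D5:**
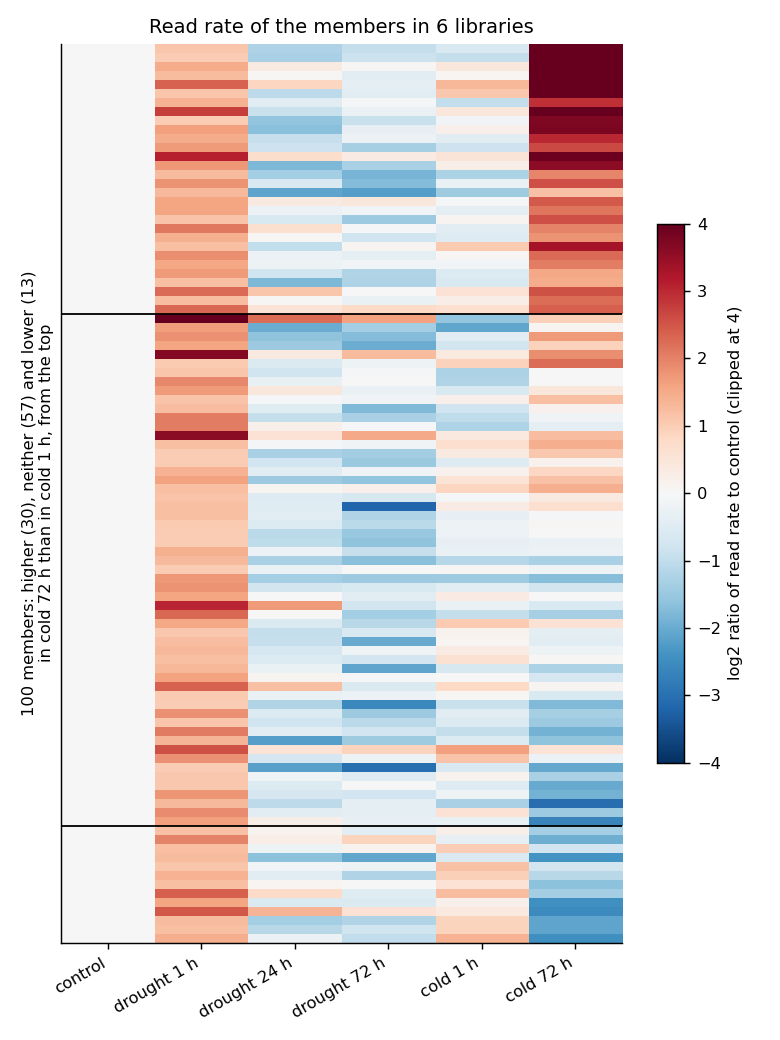
log2 ratio of read rate to the control (colour, clipped at 4, counts under 3 set to 3) for all 100 members (rows) in 6 libraries (columns). Black lines separate the 30 members higher in cold 72 h than in cold 1 h, the 57 called neither and the 13 lower. Drought 1 h is above the control in every row by the rule, and cold 72 h runs from dark red at the top to blue at the bottom.

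Of the 100 members, 35 were contigs of 32 assembly clusters by their identifiers, and 32.1% of the 16623 unigenes were such contigs. Contigs of a cluster can be splice forms or near-identical copies between which uniquely assigned reads are split, which makes the value of any single contig uncertain. Summing all contigs of a cluster, 11 of the 32 clusters still met the 2-fold rule, and 30 were highest in drought 1 h among the 4 libraries. The clusters hold 59 further contigs, of which 17 had at least 30 reads in drought 1 h. Of these 17, 8 were higher in drought 1 h than in each of the 3 others, beside 28.9% of the 16623 unigenes, and 14 were above the control and 3 below, beside 57.1% of the 16623 unigenes above it.

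In 3 clusters 2 contigs were members. CL4803 had no further contig. CL4803.Contig2_All (332 bases) had 39 reads in the control, 72 in drought 1 h, 12 at 24 h and 21 at 72 h. In cold it had 35 and 478, and cold 72 h was its highest library, as in CL4803.Contig1_All. At 24 h of drought the 2 contigs differed. CL4803.Contig2_All stood at 0.334 times the control (0.159 to 0.652) and CL4803.Contig1_All at 1.036 times (0.867 to 1.239). Cold 72 h over cold 1 h was 14.32 (10.15 to 20.81) in CL4803.Contig2_All, below the 28.98 (25.62 to 32.91) of CL4803.Contig1_All. CL7200.Contig1_All (499 bases) differed from its partner late in drought, with 14 reads in the control, 46 in drought 1 h, 8 at 24 h and 12 at 72 h, and 30 and 11 in cold. In CL4802, CL4802.Contig6_All (635 bases) had 14 reads in the control, 31 in drought 1 h, 5 at 24 h and 6 at 72 h, and 25 and 3 in cold, the same order of libraries in cold as CL4802.Contig4_All. The third contig, CL4802.Contig1_All (345 bases), had 14 reads in the control, 23 in drought 1 h, 40 at 24 h and 14 at 72 h, and 20 and 9 in cold, so it was highest at 24 h.

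In other clusters the share of the member within the cluster differed between libraries. In CL4033 the member contig held 2.04% of the cluster's reads in the control and 6.11% in drought 1 h, and the cluster sum was 539 reads in the control and 491 in drought 1 h. In CL6802 it held 2.60% and 8.498%, and among the control and drought libraries the sum was highest at 24 h with 677 reads. In CL9211 the member held 29.0% of 1219 reads in the control and 51.5% of 2756 in drought 1 h. For these 3 clusters, named after their values were seen, the share of the member within the cluster was larger in drought 1 h than in the control, and the cluster sum did not meet the rule.

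Members were 212 to 3218 bases long with a median of 736, and the median over the 16623 unigenes was 956. The longest was CL5126.Contig1_All, with 14 reads in the control, 30 in drought 1 h, 6 at 24 h and 8 at 72 h, and 25 and 2 in cold. Reads covered 86.7% of the length of the median member in drought 1 h, against 87.1% over the 16623 unigenes. Coverage was under 50% in 15 members, 14 of them cluster contigs, and the lowest was 8.69% in CL3662.Contig2_All. For such members RPKM averages over bases without uniquely assigned reads, whereas ratios between libraries are not affected by length.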

How the data were processed

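The authors deposited 1 table per library with counts of uniquely assigned reads per unigene, RPKM and percent coverage (how much of each unigene is under reads), per the file headers. The submitters' processing notes name Bowtie 0.12.2. The assembler and the use of strand are not stated there. Counts summed to the total in each header, and RPKM recomputed from the deposited counts, lengths and totals differed from the authors' by at most 8.68e-09 in relative terms. Tables list only unigenes with a read, so a missing unigene was taken as 0 reads. A floor of 3 counts is 0.642 to 0.698 CPM.

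Ratios of counts over totals were given exact Clopper-Pearson 95% intervals (scipy 1.17.1), checked on simulated data. With 1 library per group there is no test across samples. The members, gene lists, naming rule and tests were chosen with earlier results of these data known. Unigenes named are the firmest or most abundant peaks, the extremes of each cold contrast, clusters with 2 or more members, the threshold neighbours and the extremes of length, and others where stated. Lists of gene names could not be applied. As alternatives, libraries were scaled by TMM or upper-quartile factors (edgeR 4.0.16) or median-of-ratios factors (DESeq2 1.42.0); others were different thresholds, floors and bounds, RPKM plus 1, and summed clusters. Python 3.11.15, numpy 2.4.6, pandas 2.3.3, matplotlib 3.10.9 and R 4.3.3 were used.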

Additional observations from a re-analysis of the deposited data

Results flagged for a closer look

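By their ratios alone, 11 members at 1 h and 11 at 72 h lay over 2-fold above the control in 1 stress and over 2-fold below it in the other. At 1 h the drought side is fixed by the rule. These 11 are therefore the members over 2-fold below the control in cold 1 h. Of the unigenes with at least 30 reads in drought 1 h, 1.85% lay as low there. Cold 1 h was at least 2 times the control in 9 members, beside 2.7% of those unigenes. The share of unigenes with opposite ratios was not counted for either time. In 3 cases of opposite ratios, both 95% counting intervals also lay wholly beyond 2-fold, and these are described here. With 1 library each, the difference between the stresses was not tested across samples. Unigene494_All had a log2 ratio to the control of 1.73 in drought 1 h and -1.43 in cold 1 h, a difference of 3.16, and its drought value was used to choose it. At 72 h, CL2023.Contig1_All stood at -1.86 in drought and 1.95 in cold, a difference of -3.81, with 73 reads in the control against 20 in drought and 260 in cold. Unigene15180_All stood at -1.31 in drought 72 h and 2.63 in cold 72 h, a difference of -3.94. The latter pair rests on the cold 72 h library, in which many unigenes were called (4.21% higher and 6.12% lower than the control), and its part in these differences was not tested.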

How the results depend on the processing

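No paired analysis was possible because each group is 1 library. The number of members, 100, became 152 with at least 20 reads, 54 with at least 50, 32 with at least 100, 392 with a rate of at least 1.5 times, 28 with at least 3 times and 22 with all 3 lower bounds above 2. TMM left 92 of the 100, median-of-ratios factors 89 and upper-quartile factors 95, with none added, and the count was 77 with summed clusters or with RPKM plus 1. Floors of 1 or 10 reads gave 100, but at least 30 reads in drought 1 h always clear 2 times such a floor, so neither could change the count. All 100 had their lower bounds above 1, which the rule itself fixes, so that alternative could not change any result.

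Shares in parentheses are of the 16623 unigenes with at least 30 reads in drought 1 h. When a ratio of 2 or more needed only an interval without 1, cold 1 h against the control gave 9 higher (2.68%) and 4 lower (1.77%), cold 72 h against the control 21 lower (16.5%), cold 72 h against cold 1 h 20 lower (16.9%), and cold 1 h against drought 1 h 76 lower (3.27%). In drought it gave 4 higher (4.31%) and 17 lower (4.03%) at 24 h and 3 higher (2.97%) and 24 lower (2.92%) at 72 h. With an interval beyond 4, the counts were 0 lower in cold 1 h (0.0241%) and 16 higher (1.48%) and 0 lower (1.12%) in cold 72 h against the control, 18 higher (1.61%) and 1 lower (0.987%) in cold 72 h against cold 1 h, 11 lower in cold 1 h against drought 1 h (0.12%), 0 higher (0.319%) and 0 lower (0.174%) in drought 24 h and 2 lower (0.168%) in drought 72 h. TMM and median-of-ratios scaling each gave 6 lower in cold 72 h against the control and 5 lower against cold 1 h. The comparisons of drought 24 and 72 h with the control, and their alternatives, were added after seeing the data. Why counts moved with scaling was not tested. Depth limits the calls, since the median member held 45.5 reads in control and cold 1 h together.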

Other observations

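Members with adjacent identifiers were found in 2 pairs, named after their values were seen. Unigene25308_All (758 bases) had 11 reads in the control, 123 in drought 1 h, 15 at 24 h and 31 at 72 h, and 14 and 24 in cold, close to the 11, 129, 13, 26, 14 and 37 reads of Unigene25309_All in the same libraries. Unigene29881_All had 14 reads in the control, 68 in drought 1 h, 22 at 24 h and 10 at 72 h, and 32 and 5 in cold, while Unigene29882_All had 63 reads in the control and 25 in cold 1 h. The first pair had similar read counts in each library. Their lengths differ, and in drought 1 h RPKM was 37.7 in Unigene25308_All and 80.3 in Unigene25309_All. The second pair moved in opposite directions from the control to cold 1 h. Whether adjacent identifiers stand for pieces of the same transcript is not known from the files.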
